A study of Mus musculus with 13 samples.

Results

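The keratin genes of mouse back skin were followed through 2 days and nights. Members were all probes of the deposited table whose single annotated symbol is Krt followed by a number, which leaves out the keratin-associated proteins. The rule gave 52 genes of the 19938 with a probe of 1 symbol, each with 1 probe, and 50 of the 52 passed a filter on low values. The mice were C57Bl6 males of postnatal day 30, whose follicles were in anagen, when hair grows, and the tissue was whole back skin, per the labels. Lights were on for 12 h and off for 12 h, and sampling ran at 4 h steps from ZT2 up to ZT50, with ZT as the hours since lights on. RNA of 3 mice was pooled for each time, which gave 13 pools from 39 mice and 1 array a pool. All mice were of 1 strain with no allele or treatment named, so time was the only variable. The time of day of 2 h has 3 pools, and 6, 10, 14, 18 and 22 h have 2 each. No mouse was sampled in more than 1 pool, so errors and p-values reflect differences between pools and not between single animals.

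Keratins are the proteins of intermediate filaments in epithelial cells. A filament is built from pairs of an acidic type I and a basic type II keratin, and each layer of the epidermis and of the hair follicle makes its own set. In a growing follicle, cells leaving the matrix above the dermal papilla become the hair shaft, with its medulla, cortex and cuticle, or the inner root sheath that moulds it. Basal cells of the epidermis and outer root sheath make Krt5 and Krt14, and change to Krt1 and Krt10 as they differentiate. In these 52 genes, 27 lie on chromosome 11 and 25 on chromosome 15, where the type I and type II clusters lie (Krt18, of type I, sits beside the type II genes).

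By textbook compartment, 13 members were hair shaft keratins, 8 inner root sheath keratins and 6 keratins of the companion layer, outer root sheath and wound response. A further 3 were of basal epidermis, 8 of suprabasal epidermis, 5 of simple epithelium and 9 of other or less settled sites. Krt81, Krt83 and Krt85 were not analysed here. All 13 hair shaft and all 8 inner root sheath members passed the filter, as did the 6 of the companion layer group and the 3 basal ones. The 2 members under it were Krt9, a keratin of palms and soles, with a mean of 7.36 log2, and Krt20, a marker of Merkel cells and gut, with 7.55 log2, where the filter lay at 7.614 log2. The measured keratins of the hair shaft, 13 of 16 listed, and of the inner root sheath, 8 of 8, thus passed the filter in tissue labelled anagen. So did 16322 of all 19938 genes with a probe of 1 symbol, so passing is no measure of hair growth. Markers of other tissues varied between pools. Summed intensity of 10 skeletal muscle markers ran from 40020 at ZT2 to 80390 at ZT42, of 9 measured fibroblast markers from 56780 to 70410, and of 8 hepatocyte markers from 3591 at ZT26 to 30600 at ZT46. In such bulk samples fewer cells of a type and less RNA per cell cannot be told apart.

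Probe brightness ranged widely among the keratins, with 18 of the 52 at a mean of at least 13 log2 and 16 past the filter with a mean under 10 log2. Of 216 genes with a mean of at least 13 log2, 18 were keratins, or 8.33%. Array maxima lay between 29862 and 34647 intensity units. Brightness depends on the probe as well as on the transcript, so the members are described against their own means and are not ranked by level. Over the 13 pools the standard deviation (SD) of log2 intensity had a median of 0.12 over the 50 members, beside 0.11 over all 16322 genes tested. Among the 18 bright members it was 0.086, beside 0.071 over the 216 bright genes. The steadiest members were Krt71 (0.029), Krt25 (0.034) and Krt17 (0.046), and the most variable were Krt40 (0.31), Krt39 (0.27) and Krt24 (0.27).

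**Figure D1:**
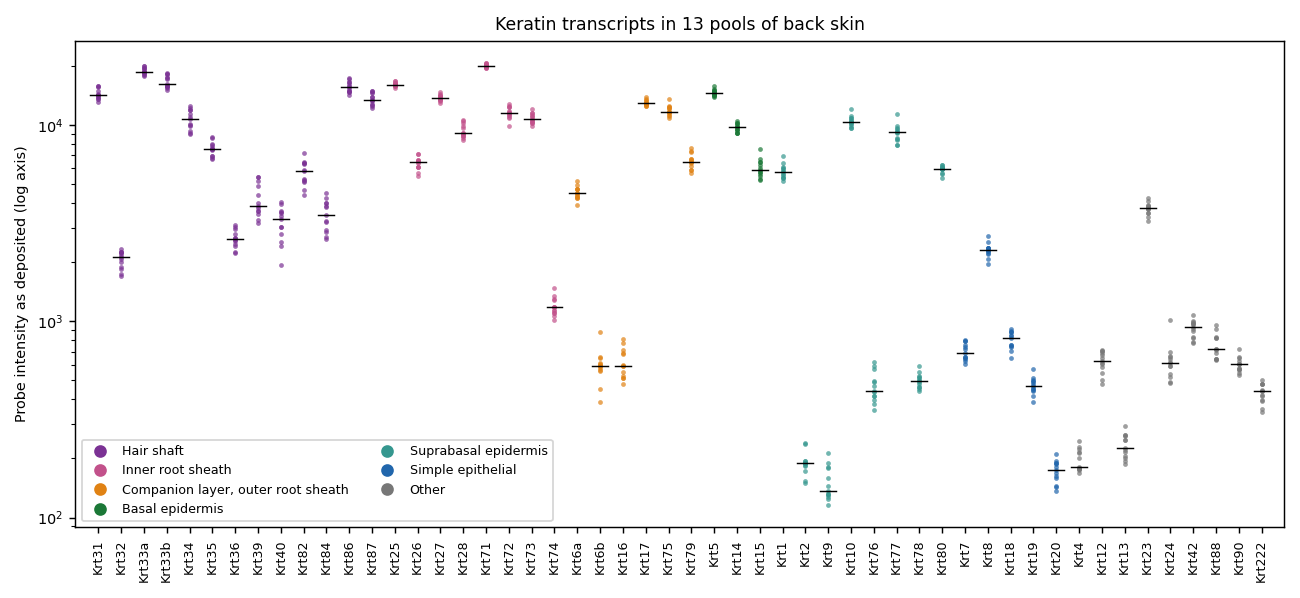
Deposited probe intensity (log axis) of the 52 keratin genes, 1 point for each of the 13 pools and a black line at the median, coloured by compartment. Points of Krt71 lie within 19420 to 20718, while those of Krt40 run from 1945 to 4048; heights of different probes are not comparable.

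The hair shaft keratins varied more than the other follicle groups, with a median SD of 0.15 log2 against 0.093 in the inner root sheath and 0.12 in the companion layer group. Over all genes the median SD was 0.13 under 10 log2 and 0.071 at 13 log2 or more, and the groups were not matched for brightness. The shaft keratins are the cysteine-rich ones that disulphide bonds lock into the hard fibre. Krt31, a keratin of the cortex, read 15795, 15551, 14379, 13087, 13959.5, 14144, 14869, 14185, 14254, 15802, 13882, 13516 and 13615 intensity units from ZT2 to ZT50 in 4 h steps. Its lowest pool was ZT14 and its highest ZT38, both taken in the dark at the same clock hour. Krt35, made early as matrix cells enter the shaft, read 8567, 8723, 7928, 6909, 7545, 7953, 7571, 7703, 6939, 7545, 6750.1, 7440.1 and 6719. Its 3 highest pools were ZT2, ZT6 and ZT22 of the first day, and its lowest was ZT50. Krt39, of cortex and cuticle, read 4412, 4895, 3851, 3281, 4011, 3631, 5165, 5437, 3786, 5423, 3518, 3639 and 3157, with ZT26, ZT30 and ZT38 highest and ZT14 and ZT50 lowest. Krt40, a cuticle keratin, read 4048, 3578, 3439.7, 3028, 3649, 3964, 2426, 3011, 3311, 3618, 2768, 2519.5 and 1945, with ZT2 and ZT22 highest and ZT50 lowest.

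The remaining shaft members had highest-to-lowest ratios from 1.14 (Krt33a) to 1.72 (Krt84), beside 1.21 for Krt31 and 1.30 for Krt35. Krt82, the type II keratin of the cuticle, read 7174, 6370.2, 6329.6, 5317, 6497, 6387, 4682, 5185, 5893, 5806, 5263, 5147 and 4405, and its lowest pools were ZT50 and ZT26. Krt32, another cuticle keratin, lay between 1693 and 2322 with a median of 2127. Krt84, known from the filiform papillae of the tongue, lay between 2636 and 4524 with a median of 3468. These 2 genes differ in where they dip: Krt32 was lowest at ZT50 and Krt84 at ZT42. The cortical Krt33a, Krt33b and Krt34 had medians of 18634, 16093 and 10697, with highest-to-lowest ratios of 1.14, 1.22 and 1.39. Krt36, Krt86 and Krt87 had medians of 2639, 15686 and 13399, with ratios of 1.39, 1.23 and 1.22. Krt31, Krt33a, Krt33b and Krt34 are close copies of each other in sequence, as are Krt86 and Krt87, and their probes may share signal.

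The shaft members moved together from pool to pool. All 13 were above their own mean at ZT2 and at ZT6, and none of the 13 at ZT14, ZT42 or ZT46. At ZT50 only 1 of 13 was above its mean (Krt86), and at ZT38 12 of 13 were. The mean of their centred log2 values was highest at ZT6 (0.16) and ZT38 (0.15) and lowest at ZT50 (-0.21), ZT14 (-0.16) and ZT46 (-0.15). ZT14 and ZT38 are the same clock hour and lie near opposite ends of this range, at -0.16 and 0.15. Other tissues' markers moved in the same pools: at ZT14 the fibroblast list was at its highest (0.17) and the adipocyte list at 0.15, at ZT46 the hepatocyte list stood at 2.30 and the muscle list at -0.42, and at ZT42 the muscle list was at its highest (0.44). Their part in the keratin values was not tested.

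Over the 78 pairs of shaft members, Pearson's r across the 13 pools had a mean of 0.62, and 76 pairs were above 0. Over the 187 pairs of members of the same compartment the mean was 0.46, over the 1038 pairs of different compartments 0.09, and over all 133195681 pairs of genes tested 0.02. These are descriptions, since the points of every pair share the same arrays and RNA. Within the shaft set, 2 patterns stood out. The cuticle keratins Krt40 and Krt82 had an r of 0.94, and Krt32 with Krt40 0.88, although Krt40 is on chromosome 11 and Krt82 on chromosome 15. The cortical pairs Krt31 with Krt33a (0.93) and Krt33a with Krt34 (0.90) ran together as well, as did Krt34 with Krt39 (0.90), the latter of cortex and cuticle. Other shaft members bridged the 2 patterns. Krt87 had an r of 0.88 with Krt31, 0.71 with Krt32 and 0.65 with both Krt40 and Krt82. Krt35 had 0.70 with Krt31 and 0.68 with Krt82. Across these sets, which were chosen after their values were seen, r ran from 0.12 (Krt34 with Krt82) to 0.67 (Krt31 with Krt32), and within them from 0.75 (Krt31 with Krt39) to 0.94. Neighbours on the chromosome did not go together in every case: Krt39 and Krt40, next to each other among the members in gene order, had an r of 0.30, and Krt82 and Krt84, also neighbours, 0.33. The split is visible at ZT26, where Krt39 was among its 3 highest values and Krt40 at its second lowest.

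**Figure D2:**
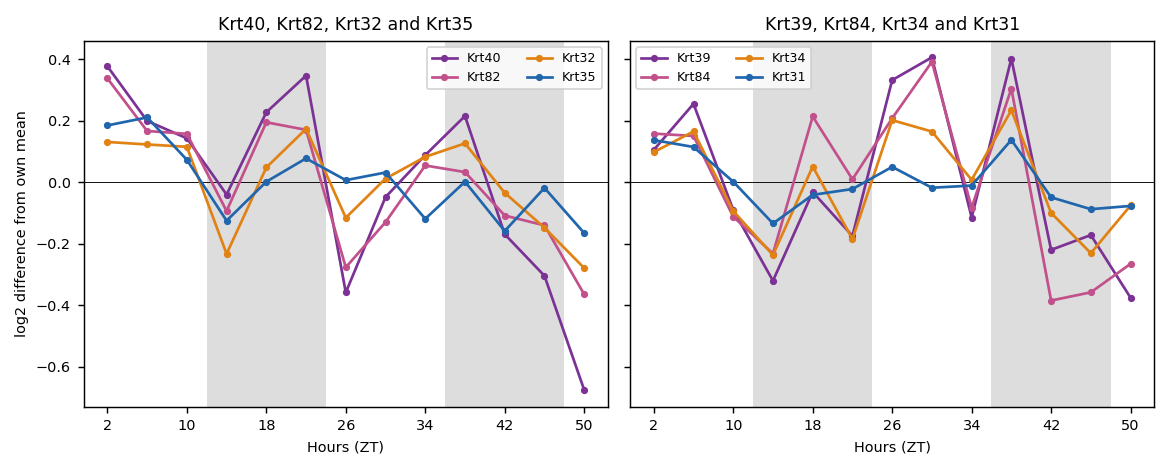
Log2 intensity of 8 hair shaft keratins minus each gene's own mean, against hours from lights on (grey bands are the dark phase), 1 point a pool. Krt40, Krt82, Krt32 and Krt35 (left) start above their means and end below them, while Krt39, Krt84 and Krt34 (right) have high points at ZT26, ZT30 and ZT38.

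Promoters of 4 shaft members are shown because they carry the same short match in almost the same place. These 4 were not all close in movement. Krt32 had an r of 0.39 with Krt34, 0.56 with Krt33b and 0.67 with Krt31, beside 0.88 with Krt40, which lacks the match. Whether the match bears on movement was not tested. RefSeq's table (GRCm38.p6) held a promoter of 300 bases, 250 before the annotated start and 50 after it, for 36 of the 52 members. The motif CTTTGAA, the core of the site of LEF1, a Wnt-pathway factor of the hair matrix, was sought on both strands. Counted by gene with a promoter, it was in 5 of 9 shaft genes (55.6%), in 6 of all 36 keratin genes (16.7%) and in 5.93% of 27025 genes. With the start as 1 and the base before it as -1, its first base lay at -244 in Krt31, -247 in Krt32, -247 in Krt33b and -240 and -133 in Krt34, and at -19 on the other strand in Krt39. Krt31, Krt33b and Krt34 are close paralogs, so these are not independent cases. The 250 bases up to the start are given for chr11:100050552-100050801 (Krt31), chr11:100088270-100088519 (Krt32), chr11:100029869-100030118 (Krt33b) and chr11:100041555-100041804 (Krt34), all on the minus strand and written 5′ to 3′ along the gene. Capitals mark CTTTGAA and TATAAA, the latter being the TATA box.
Krt31: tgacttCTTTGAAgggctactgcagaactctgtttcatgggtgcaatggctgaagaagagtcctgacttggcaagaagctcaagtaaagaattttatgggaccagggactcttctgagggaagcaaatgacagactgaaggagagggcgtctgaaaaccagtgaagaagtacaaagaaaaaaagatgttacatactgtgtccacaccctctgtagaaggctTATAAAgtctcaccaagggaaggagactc
Krt32: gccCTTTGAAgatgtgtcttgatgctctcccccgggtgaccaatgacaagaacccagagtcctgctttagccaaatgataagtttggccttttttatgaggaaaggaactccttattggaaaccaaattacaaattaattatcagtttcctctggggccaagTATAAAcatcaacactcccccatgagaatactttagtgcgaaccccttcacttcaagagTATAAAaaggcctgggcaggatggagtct
Krt33b: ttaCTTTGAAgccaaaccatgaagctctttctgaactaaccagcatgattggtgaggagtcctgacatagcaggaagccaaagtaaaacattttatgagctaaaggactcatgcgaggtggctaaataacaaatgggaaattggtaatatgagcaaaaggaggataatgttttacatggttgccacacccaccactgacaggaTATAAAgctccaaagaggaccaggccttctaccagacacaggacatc
Krt34: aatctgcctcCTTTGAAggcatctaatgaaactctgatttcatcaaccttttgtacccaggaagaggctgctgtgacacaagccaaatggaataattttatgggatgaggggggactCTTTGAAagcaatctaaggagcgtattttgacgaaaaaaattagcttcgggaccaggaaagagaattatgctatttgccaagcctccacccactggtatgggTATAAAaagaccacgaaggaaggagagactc
A match is a string of letters and no measure of binding. LEF1's own transcript had a slope of -0.02 log2 per 24 h and a 24 h amplitude of 0.02 log2 (Lef1).

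The cuticle pair with the highest r had neither motif in common. Krt40 (chr11:99543221-99543280, minus strand) has TATAAA at -29 and Krt82 (chr15:101550660-101550719, minus strand) has none in its 300 bases, and CTTTGAA is in neither. The last 60 bases before each start are shown. Only the exact string TATAAA was sought, and the Krt82 stretch holds the near form aataaa.
Krt40: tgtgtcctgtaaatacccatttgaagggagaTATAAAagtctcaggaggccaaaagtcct
Krt82: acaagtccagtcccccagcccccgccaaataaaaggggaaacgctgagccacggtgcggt
CACGTG, the E-box bound by the clock's activators, was in 0 of 9 shaft and 0 of 7 inner root sheath genes with a promoter. It was in 3 of 36 keratin genes (8.33%, Krt75, Krt23 and Krt78) beside 8.09% of all genes with a promoter. GCCNNNGGC, a form of the AP-2 site, was in 7 of 36 (19.4%) beside 18.5%.

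The inner root sheath keratins were the steadiest follicle group by median SD, with brightness not matched. They form soft filaments in the layers around the shaft and are lost before the hair leaves the skin. Krt71, of all layers of the sheath, read 20251, 19965, 19797, 19419.6, 20529.6, 20224, 19948, 19796, 19543, 20366, 20631, 19876 and 20718, and its highest pool was 1.07 times its lowest. Krt25, a type I partner in those layers, read 16039, 15414, 16133, 15758, 16833, 16051, 15970.1, 16730.1, 15800.0, 16279, 16372, 16118 and 16000.3, with a ratio of 1.09. Both lie near the top of the array's scale, where the spread of all genes was also small; whether the scale limits their spread was not tested.

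The other sheath members varied more and in a shared way. Krt72 and Krt73, of the sheath cuticle, lay between 9886 and 12849 and between 9913 and 12095. Krt26, also of the cuticle, lay between 5516 and 7145, Krt27 between 12889 and 14673 and Krt28 between 8402 and 10542. Krt74, listed by RefSeq as a transcribed pseudogene, was dim, between 1015 and 1484. All 8 members were below their own mean at ZT14 and at ZT34, and 7 of 8 were above it at ZT18 and at ZT38. ZT34 and ZT18 were not particular to the sheath. At ZT34 0 of 6 companion, 0 of 3 basal and 0 of 4 simple epithelial members were above their mean. Above it there were 4 of 13 shaft, 2 of 9 other and 4 of 7 suprabasal members. At ZT18 7 of 7 suprabasal, 3 of 3 basal, 4 of 4 simple epithelial and 9 of 13 shaft members were above theirs. At ZT14 the mean of the 8 sheath members was -0.10 and at ZT18 it was 0.11, which are 4 h apart. All 28 pairs of sheath members had an r above 0, with a median of 0.43 and a range from 0.21 to 0.86 (Krt26 with Krt27). With the shaft members, 83 of 104 pairs were above 0, with a median of 0.31, and with the suprabasal epidermis 19 of 56, with a median of -0.19. After centring each array on its median, the median of the shaft and sheath pairs was 0.52.

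A TATA box lay at the same position in 4 of the 7 sheath promoters. Counted by gene, TATAAA was in 7 of 7 sheath, 6 of 9 shaft (66.7%) and 19 of 36 keratin genes (52.8%), and in 15.7% of all genes with a promoter. A window was then chosen after the matches were seen, on the gene's own strand with the first base from -45 to -15. In it lay a match of 6 of 7 sheath genes (85.7%) and 4 of 9 shaft genes (44.4%). Of all 32851 promoters of 300 bases, counted singly and not by gene, 2.25% had one. The edges set these counts: Krt27 of the sheath lies on the edge at -15, and Krt33b of the shaft just outside at -47. No conclusion is drawn from the difference between the groups. It began at -30 in Krt25, Krt26, Krt28 and Krt73, at -40 in Krt71 and at -15 in Krt27, and Krt72 had it only on the other strand at -203. The last 60 bases are printed for the 4 that share the position, chr11:99322952-99323011 (Krt25), chr11:99337966-99338025 (Krt26), chr11:99374904-99374963 (Krt28) and chr15:101802361-101802420 (Krt73), all on the minus strand.
Krt25: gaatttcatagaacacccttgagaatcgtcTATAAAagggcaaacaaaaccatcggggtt
Krt26: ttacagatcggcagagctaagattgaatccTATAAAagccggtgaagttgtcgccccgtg
Krt28: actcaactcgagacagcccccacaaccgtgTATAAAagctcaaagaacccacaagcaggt
Krt73: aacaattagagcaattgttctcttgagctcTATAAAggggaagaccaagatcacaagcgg
Outside the box these stretches differ, and Krt73 is a type II gene on another chromosome than the other 3. The neighbours Krt25, Krt26, Krt27 and Krt28 follow each other in gene order on chromosome 11.

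The companion layer and outer root sheath keratins split into bright, steady genes and dim, variable ones. Krt17, of the outer root sheath, read 13184, 13428, 13007, 12852, 13895, 12919, 12523, 12608, 12451, 13538, 12979, 12788 and 12971. Krt75, the companion layer keratin, read 12428, 12099.5, 12215, 11482, 13565, 11691, 11645, 12287, 11065, 12406, 11661, 10891 and 11225, highest at ZT18 and lowest at ZT46. Krt6a, made in the companion layer and after wounding, read 4225, 4415, 4717, 3894, 5152, 4694, 4293, 4709, 4249, 4921, 4479, 4499.7 and 4364, again highest at ZT18. Those 3 genes thus shared their highest pool, which was also that of 4 of 8 sheath, 2 of 3 basal and 0 of 13 shaft members. Krt6b and Krt16, which rise in wounded or hyperproliferative epidermis, were dim, between 389 and 882 and between 479 and 815, and both were highest at ZT30. Krt79, of the duct that joins the follicle to the skin surface and the sebaceous gland, read 6155, 5906, 6610.0, 7605, 7369, 7244, 6718, 6678, 6488, 5701, 5899, 6509.5 and 6428. It was highest at ZT14 and lowest at ZT38, the reverse of Krt31. All 6 members were below their mean at ZT34, as were all 8 sheath and all 3 basal members.

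The basal keratins were steady apart from Krt15. Krt5 read 14819, 14036, 14245, 14299, 15797, 15006, 13851, 14266, 14286, 14578, 14920.2, 14771 and 15163, with a highest-to-lowest ratio of 1.14. Krt14, its type I partner, read 10088, 9762, 9851, 10205, 10474, 10174, 9079, 9106, 9569.9, 9733, 9149, 9416 and 9473. Krt15, of basal cells and follicle stem cells, read 6508, 6441, 5877, 7522, 6069, 6716, 5218, 5639, 5743, 5494, 5299.5, 6259.6 and 5725, with a ratio of 1.44. All 3 were lowest at ZT26. At the same clock hour, Krt14 and Krt15 were lower on the second day than on the first at 6 of 6 hours, by a median of -0.11 and -0.19 log2; 2.14% of all genes tested were lower at 6 of 6. Krt5 was lower at 3 of 6 hours.

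The suprabasal keratins include the main filament pair of the differentiating epidermis. Krt1 read 5201, 5967, 5605, 6981, 6368, 5816, 6063, 5364, 5533, 5358, 5434, 6099 and 5728, and Krt10 read 10373, 10802, 10418, 12049.6, 11153, 10591, 9924, 9655, 10173, 9696, 10118, 10847 and 10385, both highest at ZT14. Krt77, a type II keratin of the same layers, was also highest at ZT14 and lay between 7915 and 11411. These 3 were thus at their highest in the pool where no hair shaft and no inner root sheath member was above its mean. Krt80 lay between 5361 and 6277 and did not follow them, being highest at ZT10. Krt2, of tail, ear and foot skin, Krt76, of the palate, and Krt78 were dim, with medians of 189, 441 and 498. The difference between the shaft mean and the suprabasal mean ran from -0.30 log2 at ZT46 and -0.27 at ZT14 to 0.22 at ZT30. The suprabasal members did not move as 1 group. Of their 21 pairs 13 had an r above 0, with a median of 0.07 and a range from -0.60 to 0.91. The dim Krt2 and Krt78 were highest at ZT46, where the array median was also highest (483.2). The r with the array median was 0.76 in both Krt76 and Krt78, and from -0.33 (Krt80) to 0.44 (Krt2) in the others past the filter. Over the 91 pairs of a shaft and a suprabasal member 23 had an r above 0, with a median of -0.28.

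The simple epithelial and remaining keratins were mostly dim. Krt8, of Merkel cells and glands, read 2292, 2529, 2308, 2210.4, 2374, 2086, 1955, 2369, 2237, 2706, 2281, 2358 and 2349. Its partner Krt18 lay between 653 and 908. Krt19, of follicle stem cells and glands, read 459, 451, 572, 504, 476, 440.1, 444, 387, 466, 417, 489.9, 513 and 498, lowest at ZT30 and highest at ZT10. Krt7, of glands, lay between 606 and 806. Krt12 of the cornea and Krt4 and Krt13 of the mouth and oesophagus had medians of 628, 182 and 225, and Krt23 a median of 3793. Krt24 read 657, 592, 483, 592, 1016, 610.2, 518, 492, 646, 537, 695, 663 and 617, with ZT18 far above the other pools. Krt42, Krt88, Krt90 and Krt222 had medians of 932, 721, 602 and 439.9. In this last group of 9, the r of log2 values with the array median over the 13 pools had a median of 0.72. It was above 0.5 in 7 of them, 0.098 in Krt24 and -0.55 in Krt23. Over the 16 members with a mean under 10 log2 it was 0.65, over all 9568 such genes 0.23, and over the shaft members -0.31.

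**Figure D3:**
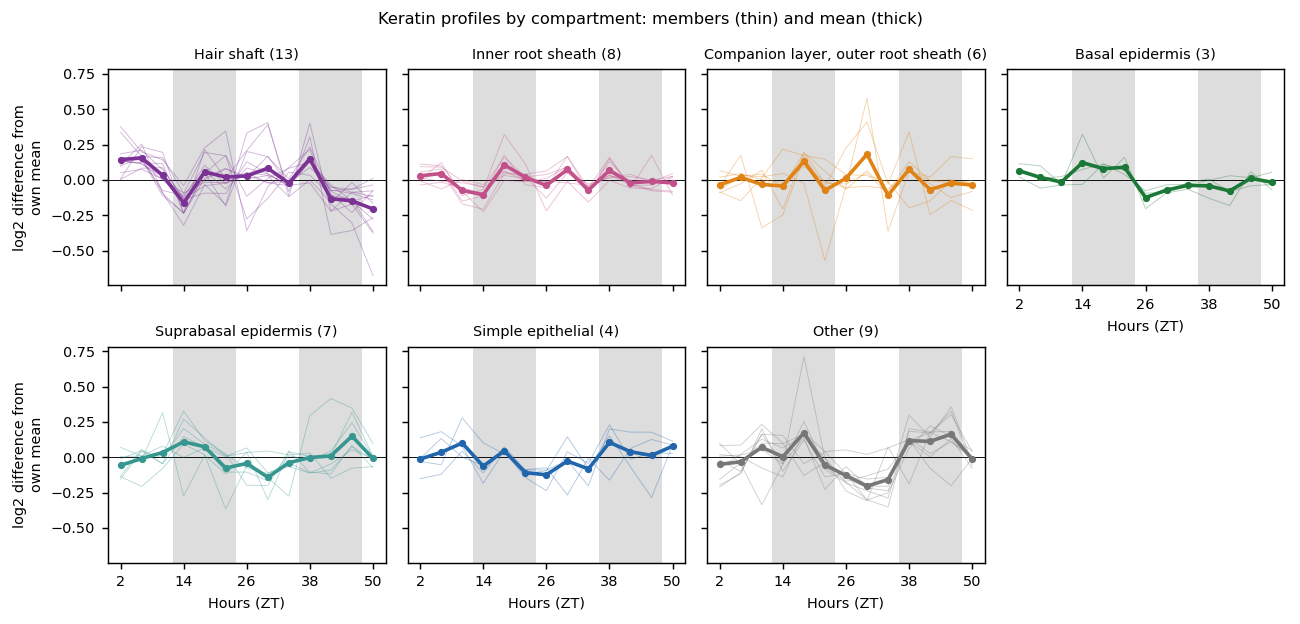
Log2 intensity minus each gene's own mean against hours from lights on, by compartment, for the 50 members past the filter (thin lines, number in brackets) with the compartment mean (thick line); grey bands are the dark phase. The hair shaft mean falls to -0.16 at ZT14 and -0.21 at ZT50, while the suprabasal mean is 0.11 at ZT14.

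The first test asked whether any keratin followed a 24 h wave. None of the 50 tested was called, which does not show that none has a wave. The SE of the amplitude had a median of 0.048 log2 over the members. Called were 0 of 50 members by limma at an adjusted p under 0.05 (Benjamini-Hochberg over 16322 genes), where 0.141% of all genes were called. At an unadjusted p under 0.05 there were 3 members (6%) beside 9.54% of all genes, and the smallest adjusted p was 0.477. The median fitted amplitude was 0.062 log2 over the members and 0.061 over all genes, and the peak-to-trough fold of the members ran from 1.01 (Krt23) to 1.43 (Krt24).

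By compartment, the median amplitude was 0.026 log2 in the inner root sheath, 0.049 in the companion group, 0.052 in the basal, 0.066 in the suprabasal, 0.069 in the simple epithelial and 0.074 in the shaft group. It was 0.14 in the group of other keratins, which holds the 3 smallest p-values. Krt13 had an amplitude of 0.18 ± 0.06 log2 (SE, 13 pools; limma, adjusted p = 0.477), Krt12 of 0.18 ± 0.06 (adjusted p = 0.484) and Krt24 of 0.26 ± 0.09 with a fitted peak at 19.3 h (adjusted p = 0.496). The Krt24 amplitude rests on 1 pool, as without ZT18 it was 0.14 (limma, unadjusted p = 0.182, adjusted p = 0.593). Krt13 read 206, 225, 249, 248, 261, 217, 202, 194, 186, 265, 263, 294 and 222. Krt12 read 586, 628, 677, 648, 689, 616, 544, 499, 481, 714, 702, 704 and 608. Both were low at ZT26 to ZT34 and high at ZT38 to ZT46, and the array medians were likewise low at ZT34 (443.0) and highest at ZT46 (483.2). Median centring of the arrays left fitted amplitudes of 0.16 log2 in both Krt13 and Krt12 (limma, adjusted p = 0.417 and 0.439). Quantile normalization left 0.13 in Krt13 and 0.16 in Krt12. Causes of these waves were not tested. At 18 h Krt24 averaged 855 ± 227 (SD, n = 2), from 1016 at ZT18 and 695 at ZT42, beside 564 ± 115 (SD, n = 2) at 10 h. At 2 h Krt31 averaged 14759 ± 1094 (SD, n = 3), beside 14444 ± 1920 (SD, n = 2) at 14 h, and the pools of these hours overlap. So do those of Krt71, with 20306 ± 388 (SD, n = 3) at 2 h beside 19893 ± 669 (SD, n = 2) at 14 h.

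The second test asked whether keratins drifted over the 48 h sampled. All pools were labelled anagen, with no finer stage given. No member passed: 0 of 50 were called by limma, with 0% of all genes called, and the smallest adjusted p was 0.325. At an unadjusted p under 0.05 there were 7 members (14%) beside 8.8% of all genes. Of these, 5 had slopes below 0 (Krt82, Krt40, Krt35, Krt15 and Krt14), beside 5.59% of all genes, and 2 above 0 (the dim Krt7 and Krt76), beside 3.22%. Slopes were below 0 in 32 of the 50 and in 56.5% of all genes.

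The 3 smallest p-values for drift belonged to shaft keratins. Krt40 had a fitted slope of -0.35 ± 0.09 log2 per 24 h (SE; limma, unadjusted p = 0.00174, adjusted p = 0.325), with a 95% interval from -0.54 to -0.16. Krt82 had -0.25 ± 0.06 (adjusted p = 0.325), from -0.38 to -0.11, and Krt35 -0.13 ± 0.04 (adjusted p = 0.373). At the same clock hour, Krt40, Krt82, Krt35 and Krt32 were each lower on the second day at 5 of 6 hours. The exception was the 14 h pair of ZT14 and ZT38. Among all genes 13% were lower at 5 or 6 hours, beside 6 of the 13 shaft members (46.2%). Krt39, Krt84 and Krt86 were instead higher on the second day at 4 of 6 hours, and Krt34 at 3. The 13 members share arrays and RNA, with a mean r of 0.62 over their pairs. Neither these counts nor the slopes, which use the same values, are thus independent cases. In the shaft set 12 of 13 slopes were below 0, with a median of -0.081 log2 per 24 h beside -0.010 over all genes, and Krt86 alone was above 0 (0.02). Medians were 0.007 in the inner root sheath, -0.010 in the companion group, 0.0051 in the simple epithelial, -0.020 in the other, -0.047 in the suprabasal and -0.075 in the basal group.

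Markers of other tissue moved over the same span. All 10 skeletal muscle markers had slopes above 0, with a median of 0.27 log2 per 24 h, and of the adipocyte markers 6 of 9 were below 0. With the muscle and adipocyte means as covariates, 11 of 13 shaft slopes were below 0 with a median of -0.055, and Krt40 had -0.27 (limma, adjusted p = 0.974) and Krt82 -0.17 (adjusted p = 0.974). Without the ZT50 pool 10 of 13 were below 0, with a median of -0.048, and 2 rather than 3 had an unadjusted p under 0.05.

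**Figure D4:**
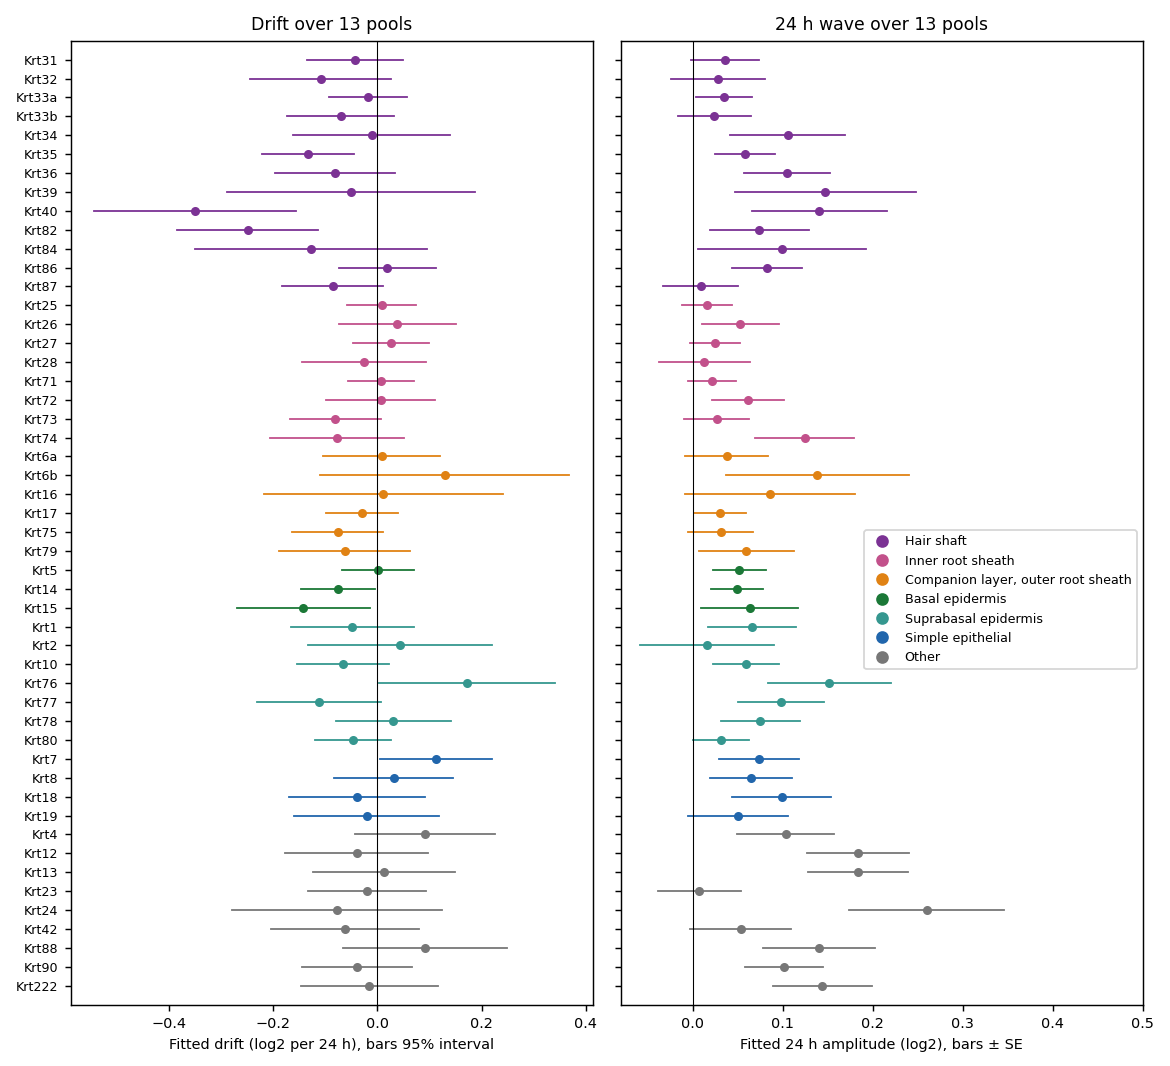
Fitted drift (left, log2 per 24 h, bars are 95% intervals) and fitted 24 h amplitude (right, log2, bars are ± SE) of the 50 keratin genes past the filter, coloured by compartment. Krt40 (-0.35) and Krt82 (-0.25) lie farthest below 0 on the left, and no gene passed the adjusted threshold on either side.

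The third test asked whether the wave of the first day (ZT2 to ZT22) differed from that of the second (ZT26 to ZT46). It did in 2 of 50 members, Krt40 and Krt79 (4%; 2.93% of all genes were called), and at an unadjusted p under 0.05 in 13 (26%; 26.6% of all genes). Krt40 had an amplitude of 0.18 log2 peaking at 0.6 h on the first day and of 0.28 peaking at 11.9 h on the second (limma, adjusted p = 0.0409). Krt79 had 0.19 peaking at 17.0 h and 0.12 peaking at 3.6 h (adjusted p = 0.0454). The member with the next smallest p was Krt42, which read 969, 972, 1077, 982, 836, 892, 825, 785, 774, 1008, 932, 988 and 909 (adjusted p = 0.0657). Both calls were lost with other scalings and filters, as 0 members were called after quantile normalization, after median centring, with no filter and with a 50th percentile filter. Calls over all genes fell as well, from 478 to 0, 0, 0 and 5 in that order. Leaving out 1 pool gave from 0 to 6 members: 6 without ZT42, 2 without ZT6, 1 without ZT38 and 0 without any one of the other 9. Over all genes the same fits called 1567 without ZT42, 533 without ZT6, 627 without ZT38 and at most 1 without any of the other 9. Among 9 fibroblast markers, 3 were called and 8 had an unadjusted p under 0.05 in the same test; their part in the 2 keratin calls was not tested.

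Type I and type II keratins of known filament pairs were then set against each other over the 13 pools, in 7 pairs with p-values adjusted over them (permutation test with 100000 resamples, two-sided). Krt1 and Krt10 varied together, with r = 0.84 (permutation p = 6.5e-04, adjusted 0.00455) and Spearman's rho = 0.77 (permutation p = 0.00311, adjusted 0.0183). Without the 2 pools in which Krt1 was farthest from its median, r was 0.55 (permutation p = 0.0852). Dropping a gene's extreme pools narrows its range and leaves fewer pools. That value therefore cannot tell how far the relation rests on those 2 pools. Krt86 and Krt31 had r = 0.72 (permutation p = 0.00567, adjusted 0.0198) and rho = 0.74 (permutation p = 0.00523, adjusted 0.0183). Without the 2 pools in which Krt86 was farthest from its median, r was 0.53 (permutation p = 0.0922), with the same limit. Both calls were lost without ZT14 (r = 0.68 and 0.65, adjusted permutation p = 0.0821 for both), and that of Krt86 and Krt31 also without ZT38 (r = 0.64, 0.0871).

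The other pairs did not pass by r. Krt8 and Krt18 had r = 0.56 (adjusted permutation p = 0.107) and rho = 0.69 (adjusted permutation p = 0.0285). Krt5 and Krt14, the pair of all basal cells, had r = 0.45 (adjusted permutation p = 0.208), and -0.06 without 2 pools. Krt6a and Krt16 had r = 0.41 and Krt71 and Krt25 r = 0.40 (adjusted permutation p = 0.208 for both), with rho of 0.24 and 0.35. Krt6b and Krt17 had r = 0.0042 (adjusted permutation p = 0.989) and rho = 0.011.

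**Figure D5:**
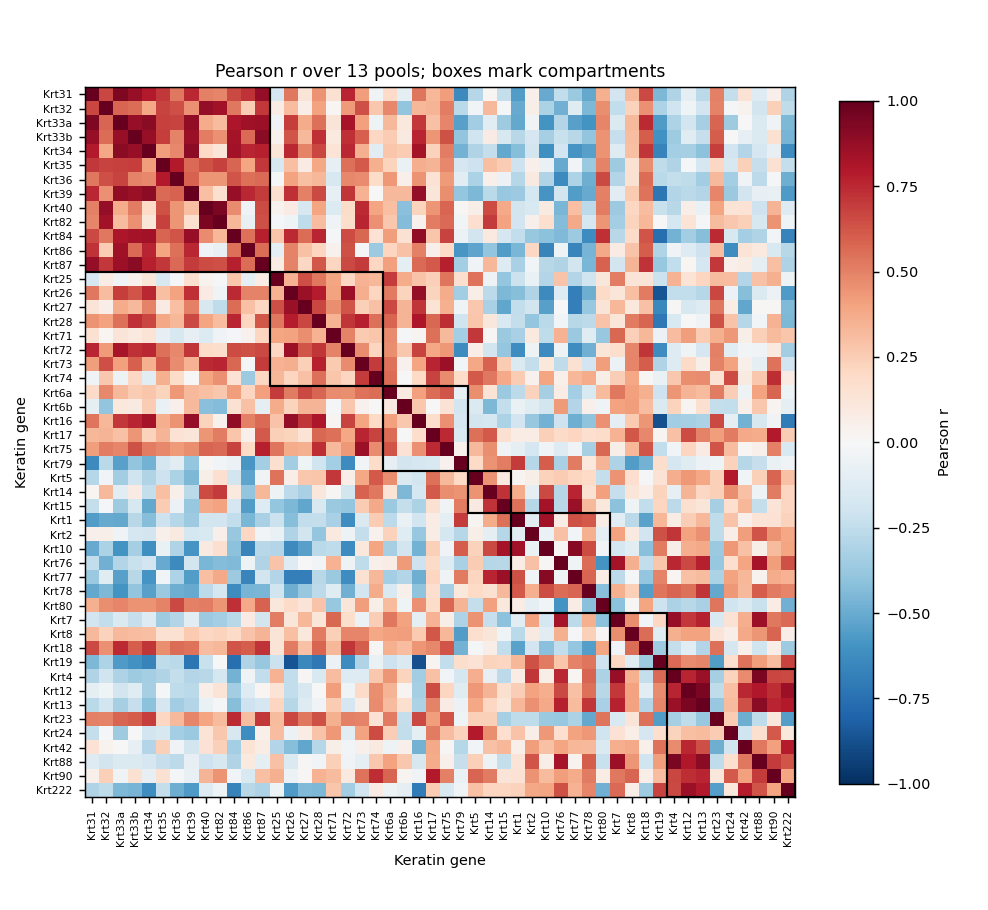
Pearson's r over the 13 pools between the 50 keratin genes past the filter, from -1 (blue) to 1 (red), in order of compartment, with each compartment boxed. The hair shaft box is the reddest, with 76 of 78 pairs above 0, and the shaft and suprabasal genes are mostly below 0, with 23 of 91 pairs above it.

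Regulators and partners of keratin filaments were read from lists. Of 20 transcription factors and signalling genes known to govern keratin genes, all measured, 0 were called by limma for the 24 h wave or for drift, and 1 (5%) had an unadjusted p under 0.05 in each, beside 9.54% and 8.8% of all genes. These were Nfe2l2, the oxidative stress factor, for the wave (amplitude adjusted p = 0.511) and Msx1, a homeobox gene of the hair matrix, for drift (-0.15 log2 per 24 h, limma, adjusted p = 0.472). Slopes were below 0 in 16 of 20, beside 56.5% of all genes. Hoxc13, which activates shaft keratin genes, had a slope of -0.07 (limma, adjusted p = 0.619). Of 22 measured filament partners of 24 listed, which cross-link or anchor filaments, 0 were called in either test by limma, and 2 and 1 had an unadjusted p under 0.05 for the wave and for drift. Tgm3, the transglutaminase that cross-links sheath and shaft proteins, had an amplitude of 0.17 (limma, adjusted p = 0.477), Fam83g 0.13 (adjusted p = 0.449), and Evpl, a protein of the cornified envelope, a slope of 0.09 (adjusted p = 0.515). Tchh, the trichohyalin that binds filaments in the inner root sheath, had a slope of 0.07 (adjusted p = 0.578).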

How the data were processed

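Members and gene lists were chosen with earlier results of these data known. The authors deposited 1 table of probe intensity on a linear scale. Affymetrix Expression Console 1.1.1 and PLIER 2.0 are named, without roles, per the submitters' processing notes; any scaling between arrays is not stated there, and array medians lay between 440.0 and 483.2. Intensities were taken as log2(value + 16), so folds of dim genes are understated. Of 35557 probes, 21789 carried 1 symbol. A gene's brightest probe stood for it, and 16322 genes whose mean reached the 25th percentile over probes (7.614 log2) were tested. One limma 3.58.1 fit (R 4.3.3) with cosine and sine of 24 h and linear time gave wave and drift. A fit over 12 pools with day by wave terms gave the day difference. Both used Benjamini-Hochberg adjustment and calls under 0.05. The scripts were tested on simulated data. Correlations used scipy 1.17.1. Values in every pool are given for 14 set members, the 3 smallest p-values of each test and the 3 largest and smallest SDs; single pairs outside the 7 filament pairs were named after their values were seen. The 13 arrays limit the precision, and the labels pair no pools.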

Additional observations from a re-analysis of the deposited data

Results flagged for a closer look

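The wave of Krt40, a cuticle keratin of the hair shaft, differed between the first and the second day (limma interaction, adjusted p = 0.0409). The fitted peak lay at 0.6 h on the first day and at 11.9 h on the second. Krt79, of the follicle's duct, differed in the same test (adjusted p = 0.0454), with fitted peaks at 17.0 h and 3.6 h. These 2 of 50 members (4%) stand beside 2.93% of all genes, and each day has 6 pools. Causes of the difference were not tested.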

How the results depend on the processing

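Rhythm and drift gave 0 called members under every alternative run, leaving out each pool included. The day difference, called in 2 members, gave 0 under quantile normalization, median centring, no filter and a 50th percentile filter, and 0 to 6 when 1 pool was left out. Calls over all genes ran from 0 to 1567 in these fits, beside 478 as reported. Krt5 with Krt14 passed with r = 0.70 (quantile), 0.60 (median centring) and 0.74 (residuals from linear time), Krt71 with Krt25 with 0.74 (median centring) but turned to -0.099 (quantile), and Krt8 with Krt18 passed with 0.65 (median centring) and 0.63 (residuals). Krt6b with Krt17 turned to -0.14 (median centring) and -0.00043 (pseudocount 64). Leaving out 1 pool, r ran from 0.68 to 0.93 for Krt1 with Krt10, 0.64 to 0.82 for Krt86 with Krt31, 0.49 to 0.75 for Krt8 with Krt18 and -0.20 to 0.27 for Krt6b with Krt17.

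Slopes near 0 changed sign. Under quantile normalization Krt13 had -0.0040, Krt25 -0.0074 and Krt5 -0.016 log2 per 24 h. Under median centring Krt25 had -0.0021, Krt5 -0.0098, Krt6a -0.0017 and Krt71 -0.0030. With muscle and adipocyte covariates Krt24 had 0.036. Leaving out 1 pool, slopes ran from -0.079 to 0.0086 for Krt12, -0.031 to 0.056 for Krt13, -0.075 to 0.014 for Krt19, -0.13 to 0.0058 for Krt24, -0.00021 to 0.018 for Krt25, -0.13 to 0.091 for Krt39, -0.021 to 0.013 for Krt5, -0.027 to 0.039 for Krt6a and -0.0041 to 0.015 for Krt71. The causes were not tested. Pooled RNA and 1 array a time limit what small keratin changes can be seen. Whether intensities near the top of the scale do so as well was not tested.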

Other observations

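Outside the filament pairs, Krt16, a wound keratin, ran most closely with follicle keratins. Its r over the 13 pools was 0.89 with Krt84 and 0.88 each with Krt39 and Krt26, against 0.41 with its textbook partner Krt6a. Krt19 ran the other way, at -0.88 with Krt16 and -0.86 with Krt26. Krt15 of basal cells had an r of 0.86 with the suprabasal Krt77, 0.72 with Krt14 and 0.09 with Krt5. In the dim group Krt12 with Krt13 and Krt4 with Krt88 both reached 0.94, in genes that also followed the array median. These pairs were picked for their values from 1225, the points share arrays and RNA, and no test was made.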
